A study of Mus musculus with 16 samples.

Results

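The Akr1c genes encode aldo-keto reductases, and 6 of them (Akr1c12, Akr1c13, Akr1c14, Akr1c18, Akr1c19 and Akr1c21) were taken by name from the 40879 gene symbols counted in mouse kidney RNA. The rule for these 6 names uses no threshold, but the family was picked after values of all 4 groups had been seen. Their levels and changes are therefore given as a description, without a test of their own. All 6 passed the filter on low counts. The RNA came from kidneys of wild-type male C57BL/6 mice in 4 groups: Young (5 libraries, mice of 3 months), Old (5 libraries of untreated aged mice), Old+YM (3 libraries) and Old+PM (3 libraries). The herbal formulas Yukmijihwang-tang (YM) and Palmijihwang-tang (PM) were dosed orally 5 times weekly, with 100 mg/kg each day, between the ages of 19 and 24 months. In one passage the labels name the PM dose as YM, and the group name was followed. How old the untreated mice were when sampled is among the items not given in the sources used here. All 3 aged groups had 5 months of acclimatization. No label ties a library to a mouse of its own. The errors and p-values therefore measure only the spread between these libraries, which may be technical.

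Aldo-keto reductases of this family reduce ketones and oxidise alcohols on steroids and on foreign compounds, using nicotinamide cofactors. By acting at single positions of the steroid skeleton they switch hormones between strong and weak forms inside the cell, before the hormone meets its receptor. In the mouse the family arose by repeated gene duplication, so that close copies with different substrates lie side by side. The kidney is a target of androgens, mainly in the proximal tubule, where steroid-metabolizing enzymes are abundant.

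All 6 genes are protein-coding and lie on chromosome 13. Positions are those of GENCODE M21 on GRCm38 (mm10). From the lowest coordinate up they are Akr1c14 (chr13:4049011-4090688, plus strand), Akr1c18 (chr13:4132615-4150654, minus strand), Akr1c13 (chr13:4191150-4205596, plus strand), Akr1c19 (chr13:4228700-4252843, plus strand), Akr1c12 (chr13:4268176-4279433, minus strand) and Akr1c21 (chr13:4574075-4586541, plus strand). Akr1c6 and Akr1c20 lie between Akr1c12 and Akr1c21, and the whole row spans 538 kb. The coding sequence of each held 972 bases. Akr1c12 and Akr1c13 were the closest pair, with 96.2% identical coding bases, and Akr1c19 was next to both at 77.8%. Akr1c14 and Akr1c18 matched each other at 76.0%. Each had closer copies: Akr1c18 matched Akr1c21, Akr1c6 and Akr1c20 at 76.7%, and Akr1c14 matched Akr1c6 at 76.5%. No gene on the other strand overlapped any of the 6 in this annotation. On the same strand, the pseudogene Gm18857 overlapped exons of Akr1c14 and the pseudogene Marcksl1-ps4 overlapped an exon of Akr1c19.

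The libraries were made with QuantSeq, which reads 1 fragment near the poly(A) tail of each transcript, so close copies can be told apart only where their 3' ends differ. In the last 500 transcript bases, 54 of 451 words of 50 bases (12.0%) in Akr1c13 also occurred in Akr1c12, and none of the 201 words in its last 250 bases did. Akr1c14, Akr1c18, Akr1c19 and Akr1c21 shared no 50-base word of that stretch with any other gene's transcripts. Read length and the handling of reads that align in several places were not given in the sources used here, so the split between Akr1c12 and Akr1c13 is uncertain.

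Between Young and Old kidneys 3 of these transcripts were higher and 2 lower, while the most abundant of them differed little. Akr1c13 was 3.30-fold and Akr1c12 2.93-fold higher in Old, and Akr1c19 was 1.73-fold higher. Akr1c18 was 6.20-fold and Akr1c14 3.25-fold lower in Old. Akr1c21 had 1854 ± 257 CPM (counts scaled to a common library size, with TMM factors; mean ± SD, n = 5) in Young and 1796 ± 308 CPM (n = 5) in Old. In the fit across all 14665 tested genes (edgeR quasi-likelihood test, adjusted p threshold 0.05), 5 of the 6 were past the threshold, against 13.6% of all genes. The same 5 had an unadjusted p under 0.05, against 28.1% of all genes. Higher in Old were 3 (6.47% of all genes) and lower were 2 (7.13% of all genes). The groups did not overlap for 4 of the 6, against 9.19% of all genes. The median log2 change of the 6 was 0.37 and that of all tested genes 0.02. Since the family was picked with these values known, the counts describe it and support nothing further. In bulk tissue, fewer cells of a type and less RNA per cell cannot be told apart.

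**Figure D1:**
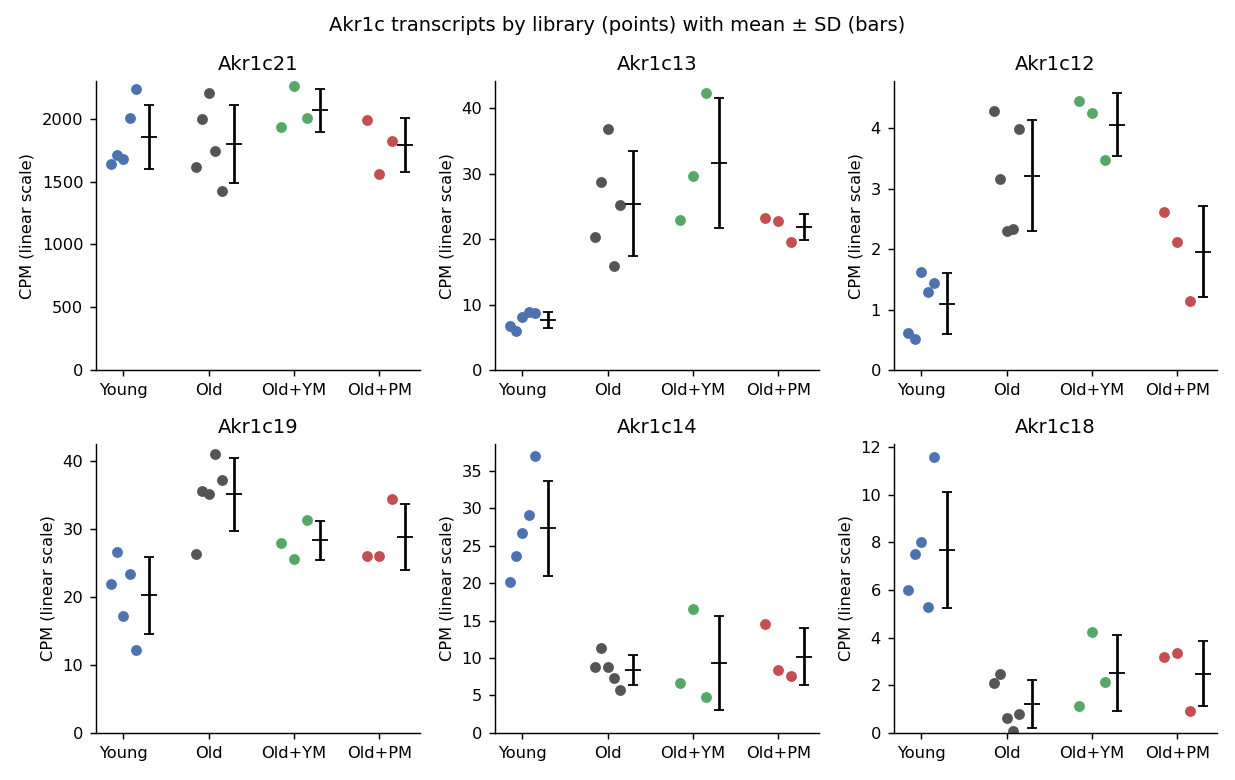
CPM of the 6 Akr1c transcripts (linear vertical axes from 0) in each library, with the groups Young, Old, Old+YM and Old+PM along the horizontal axes. Points are libraries and black bars are mean ± SD. All 11 aged libraries lay above all Young libraries for Akr1c13 and below them for Akr1c14 and Akr1c18.

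Akr1c21 encodes a 17-alpha-hydroxysteroid dehydrogenase, known for making epitestosterone, and it dominated the family. Its level was between 1425 and 2257 CPM in all 16 libraries. Because a 3' library counts a transcript once whatever its length, CPM values were not divided by length. On that scale the other 5 transcripts together made up 3.36% ± 0.222 (SD, n = 5) of the family's counts in Young and 3.96% ± 0.514 (n = 5) in Old. By group, the mean of Akr1c21 was 2065 ± 171 CPM (n = 3) in Old+YM and 1788 ± 215 CPM (n = 3) in Old+PM. The ranges of all 4 groups overlapped, and the log2 change in Old against Young was -0.05 (SE 0.12). The differences between the ages described next concern its less abundant members.

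Akr1c13 and Akr1c12 are near-identical copies that lie on opposite strands and face each other, with Akr1c19 between them. Akr1c13 had 6.82, 6.00, 8.20, 8.85 and 8.68 CPM in Young 1 to 5. In Old 1 to 5 it had 20.4, 28.8, 36.8, 15.98 and 25.2 CPM. The lowest Old library, Old 4, was thus above the highest Young library. In treated kidneys Akr1c13 had 22.9, 29.7 and 42.3 CPM in Old+YM 1 to 3 and 23.3, 22.7 and 19.6 CPM in Old+PM 1 to 3. Every treated library was above every Young library and all but Old+YM 3 lay within the range of Old. The fitted log2 change of Akr1c13 in Old against Young was 1.72 (SE 0.21).

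Akr1c12 was scarcer. Young 1 to 5 held 0.620, 0.508, 1.62, 1.29 and 1.45 CPM of it, from 5 to 16 counts, and Old 1 to 5 held 4.28, 3.16, 2.30, 2.34 and 3.99 CPM, from 22 to 43 counts. No Old library reached down to a Young one. The log2 change was 1.55 (SE 0.36). In Old+YM 1 to 3 Akr1c12 had 4.45, 4.26 and 3.48 CPM, and in Old+PM 1 to 3 it had 2.61, 2.12 and 1.14 CPM, so that 1 Old+PM library fell within the range of Young. Of the counts of both copies together, Akr1c12 made up 11.9% ± 3.77 in Young and 11.9% ± 4.30 in Old (each n = 5). It made up 12.1% ± 4.36 in Old+YM and 8.04% ± 2.33 in Old+PM (each n = 3). The means at both ages were thus alike within their SD. Over all 16 libraries their log2 levels had r = 0.80 as a description. Within groups, as deviations from the group means, r was 0.22.

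Akr1c19 encodes a further aldo-keto reductase of the row. Its values were 21.8, 26.6, 17.1, 23.4 and 12.2 CPM in Young 1 to 5 and 26.3, 35.5, 35.2, 41.0 and 37.2 CPM in Old 1 to 5. Old 1 lay just below Young 2, and the other 4 Old libraries were above all Young libraries. The log2 change was 0.79 (SE 0.17). The treated libraries held 27.9, 25.5 and 31.3 CPM in Old+YM 1 to 3 and 26.0, 25.9 and 34.4 CPM in Old+PM 1 to 3. Old+YM 2, Old+PM 1 and Old+PM 2 lay within the range of Young, and the other 3 within that of Old.

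The 250 bases before the RefSeq transcript start of these genes are shown because the 3 genes that were higher in Old share a repeated word there that the 2 lower ones lack. The sequences are from RefSeq (GRCm38.p6), where all 6 genes were found, and are printed in the direction of transcription, with the word CATTAG on either strand in capitals. RefSeq's starts differ from the outermost GENCODE starts of the gene spans given above. They lie 10580 bases downstream of it in Akr1c14, 5040 in Akr1c19, 37 in Akr1c13, 34 in Akr1c12 and 8 in Akr1c18, and in Akr1c14 and Akr1c19 they match the start of another GENCODE transcript to the base. The windows are chr13:4190937-4191186 (plus strand) for Akr1c13, chr13:4279400-4279649 (minus strand) for Akr1c12 and chr13:4233490-4233739 (plus strand) for Akr1c19.
Akr1c13: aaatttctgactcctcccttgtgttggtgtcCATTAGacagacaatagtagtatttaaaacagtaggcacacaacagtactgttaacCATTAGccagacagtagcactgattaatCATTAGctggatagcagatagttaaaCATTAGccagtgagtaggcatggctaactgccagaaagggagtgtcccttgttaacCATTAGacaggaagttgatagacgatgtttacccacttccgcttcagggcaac
Akr1c12: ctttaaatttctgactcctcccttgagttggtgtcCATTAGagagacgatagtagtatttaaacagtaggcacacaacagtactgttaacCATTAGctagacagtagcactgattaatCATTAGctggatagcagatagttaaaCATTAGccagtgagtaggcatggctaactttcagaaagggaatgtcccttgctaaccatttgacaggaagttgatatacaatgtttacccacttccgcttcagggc
Akr1c19: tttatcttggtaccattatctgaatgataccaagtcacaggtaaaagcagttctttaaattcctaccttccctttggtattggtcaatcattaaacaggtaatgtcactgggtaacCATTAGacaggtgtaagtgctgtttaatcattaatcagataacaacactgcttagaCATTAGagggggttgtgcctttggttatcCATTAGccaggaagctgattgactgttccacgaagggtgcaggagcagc
For the genes that were lower in Old, the windows are chr13:4059341-4059590 (plus strand) for Akr1c14 and chr13:4150647-4150896 (minus strand) for Akr1c18.
Akr1c14: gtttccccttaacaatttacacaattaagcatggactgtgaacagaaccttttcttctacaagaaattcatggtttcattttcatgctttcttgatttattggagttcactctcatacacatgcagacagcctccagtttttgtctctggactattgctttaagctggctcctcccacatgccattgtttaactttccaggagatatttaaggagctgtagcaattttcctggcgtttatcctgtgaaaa
Akr1c18: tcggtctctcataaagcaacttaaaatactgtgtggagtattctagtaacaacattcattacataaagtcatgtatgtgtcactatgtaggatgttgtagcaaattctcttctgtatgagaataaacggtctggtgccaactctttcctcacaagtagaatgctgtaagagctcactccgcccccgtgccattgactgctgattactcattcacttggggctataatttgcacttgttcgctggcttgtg

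CATTAG was found 5 times before Akr1c13, 4 times before Akr1c12 and 3 times before Akr1c19. It was found 0 times before Akr1c14 and Akr1c18 and 1 time before Akr1c21. Of 32851 RefSeq windows of the same length, 6.4% held it at least once and 8 (0.0244%) held it at least 3 times. These 8 were the 3 Akr1c windows and those of Cyp2c39, Fmo9, Gm34098, Gm34385 and Gm51672. The word was picked by reading these sequences, so the count is a description. The windows of Akr1c12 and Akr1c13 were 92.5% identical, so their counts are not independent. That of Akr1c19 was 54.8% and 56.6% identical to them. The other pairs of the 6 windows were between 40.7% (Akr1c12 and Akr1c14) and 50.2% (Akr1c14 and Akr1c18) identical. How the word came to be shared was not tested.

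Motifs of known factors were searched on both strands of the same windows. The steroid receptor word TGTTCT (in 16.1% of all windows), the steroid receptor palindrome, which contains that word (0.009%), the antioxidant response core TGACNNNGC (10.2%) and the TATA box word TATAAA (12.4%) had no match in any of the 6 windows. The E-box CACGTG (6.0% of all windows) had 1 match, before Akr1c21. These results concern only those letters in those 250 bases.

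Akr1c14 encodes a 3-alpha-hydroxysteroid dehydrogenase, known for converting dihydrotestosterone to a weaker androgen. It had 20.1, 23.7, 26.7, 29.1 and 36.9 CPM in Young 1 to 5 and 8.76, 11.3, 8.76, 7.31 and 5.79 CPM in Old 1 to 5. Old and Young did not overlap, and the log2 change was -1.70 (SE 0.29). Old+YM 1 to 3 held 6.62, 16.5 and 4.81 CPM of Akr1c14, and Old+PM 1 to 3 held 14.5, 8.40 and 7.66 CPM. Old+YM 2 and Old+PM 1 were above all Old libraries and below all Young libraries, and Old+YM 3 was below all Old libraries.

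Akr1c18 encodes 20-alpha-hydroxysteroid dehydrogenase, best known for inactivating progesterone in the ovary, and it also marks a transient zone of the mouse adrenal. Its values were 5.99, 7.52, 7.997, 5.29 and 11.6 CPM in Young 1 to 5, from 49 to 88 counts. In Old 1 to 5 they were 2.09, 2.49, 0.626, 0.0974 and 0.799 CPM, from 1 to 26 counts. Every Old library was below every Young library. The single count in Old 4 has an exact Poisson 95% interval of 0.0253 to 5.57 counts, which covers counting error only. Old+YM 1 to 3 had 1.14, 4.26 and 2.15 CPM and Old+PM 1 to 3 had 3.17, 3.36 and 0.931 CPM, again all below Young. The log2 change in Old against Young was -2.63 (SE 0.53). Of 10 adrenal markers, Cyp11b1, Cyp11b2, Th and Pnmt had no count in any library, and the 10 summed to between 0.108 and 1.71 CPM in Young and between 0.899 and 1.82 CPM in Old. In treated kidneys they summed to between 0.730 and 5.80 CPM.

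**Figure D2:**
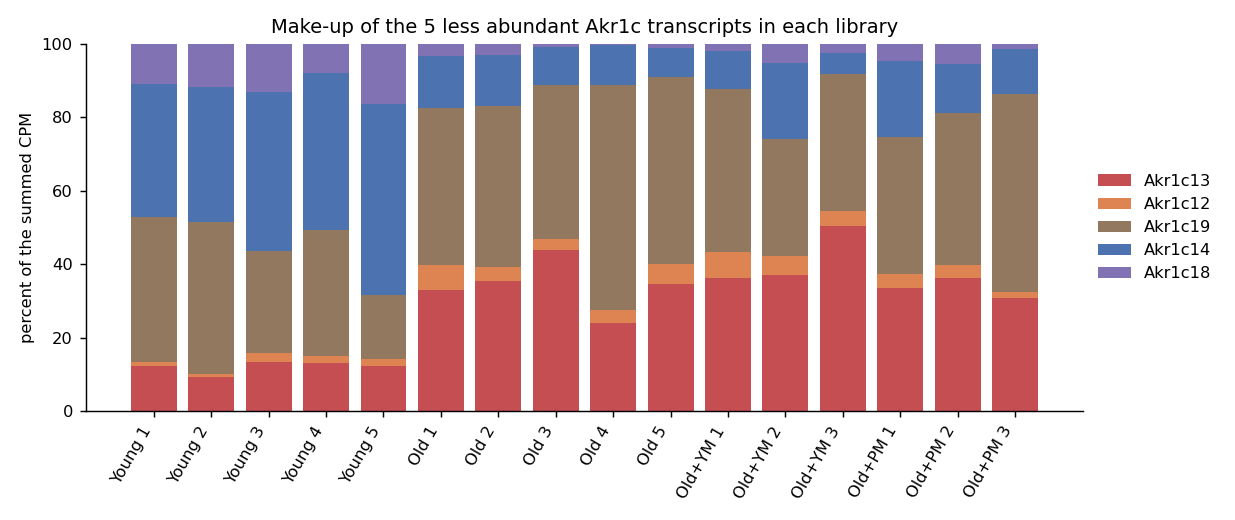
Share of each of the 5 less abundant Akr1c transcripts in their summed CPM (vertical axis, percent, stacked to 100), with 1 bar per library along the horizontal axis. Akr1c14 and Akr1c18 together took a larger part of every Young bar than of any aged bar, and Akr1c13 a smaller part.

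Summed over the 5 less abundant transcripts, the level was 64.0 ± 5.97 CPM (n = 5) in Young and 73.3 ± 9.28 CPM (n = 5) in Old, with overlapping ranges. Its make-up was different. Akr1c14 was 42.3% ± 6.39 of the sum in Young and 11.5% ± 2.59 in Old, and Akr1c18 was 11.9% ± 3.12 in Young and 1.69% ± 1.45 in Old. Akr1c13 went the other way, at 12.0% ± 1.59 in Young and 34.2% ± 7.15 in Old. Akr1c19 was 32.0% ± 9.80 in Young and 48.1% ± 8.28 in Old, and Akr1c12 1.70% ± 0.739 and 4.51% ± 1.68. The sum of Akr1c12, Akr1c13 and Akr1c19 divided by that of Akr1c14 and Akr1c18 ran from 0.461 to 1.12 in Young libraries and from 4.70 to 10.1 in Old libraries. In the treated groups this ratio ran from 2.86 to 11.1 in Old+YM and from 2.93 to 6.41 in Old+PM. All 11 aged libraries were above all 5 Young libraries in the ratio, a direction that the choice of members into its 2 parts fixes.

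The treated kidneys addressed whether either formula moved aged kidneys away from untreated Old. None of the 6 transcripts was past the threshold in Old+YM against Old (edgeR, 0 of 6; 0.0205% of all genes), where 0 of the 6 had an unadjusted p under 0.05 (9.48% of all genes). DESeq2 called 0 of the 6, and 48 genes over all. The groups overlapped for all 6, while they did not for 9.1% of all genes. In Old+PM against Old the counts for the 6 were again 0 past the threshold (0% of all genes) and 0 at an unadjusted p under 0.05 (904 genes, or 6.16% of all). DESeq2 called 0 of the 6, and 0 genes over all. The groups again overlapped for all 6, while they did not for 4.02% of all genes. Both comparisons share the Old libraries.

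For Akr1c18 the log2 change was 1.02 (SE 0.61) with YM and 1.02 (SE 0.60) with PM, from 1.22 ± 1.02 CPM (n = 5) in Old to 2.51 ± 1.59 CPM (n = 3) in Old+YM and 2.49 ± 1.35 CPM (n = 3) in Old+PM. Its level rested on few counts, and without Old+YM 2 the value with YM was 0.42. For Akr1c14 the log2 changes were 0.14 (SE 0.34) with YM and 0.28 (SE 0.33) with PM, and they turned to -0.55 without Old+YM 2 and to -0.06 without Old+PM 1. Akr1c13 had log2 changes of 0.32 (SE 0.22) with YM and -0.22 (SE 0.23) with PM, which were 0.05 without Old+YM 3 and -0.04 without Old 3. Akr1c19 had -0.31 (SE 0.20) with YM and -0.29 (SE 0.20) with PM, and Akr1c21 had 0.20 (SE 0.14), or 0.13 without Old+YM 2, and -0.01 (SE 0.14). For every member, with all libraries, an interval of 2 SE on either side of these values included 0.

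Set against each other, the formulas differed most in Akr1c12, which was lower in Old+PM than in Old+YM by a log2 change of -1.04 (SE 0.44). The 3 libraries of each group did not overlap for this gene, and for no other of the 6, which stands against 23.8% of all genes in this comparison. Akr1c13 was also lower in Old+PM, with a log2 change of -0.53 (SE 0.25), or -0.27 without Old+YM 3. Neither was past the threshold: edgeR and DESeq2 called 0 of the 6. Over all genes edgeR called 0% and DESeq2 called 59 genes. With edgeR, 2 of the 6 had an unadjusted p under 0.05 (12.8% of all genes). Against Old, Akr1c12 had log2 changes of 0.34 (SE 0.38) with YM and -0.71 (SE 0.40) with PM, the latter -0.43 without Old+PM 3.

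**Figure D3:**
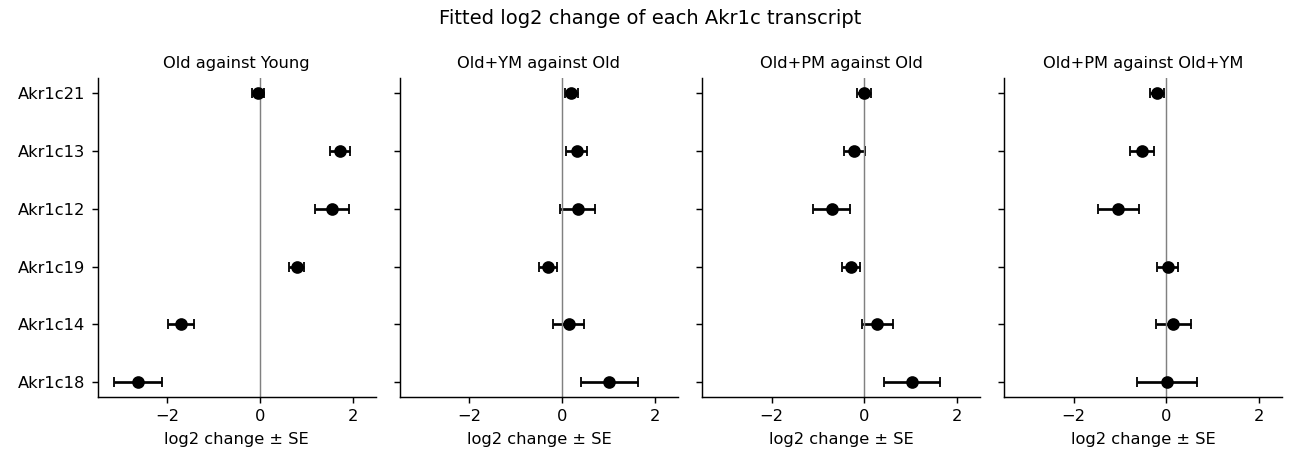
Log2 change (horizontal axes) of the 6 Akr1c transcripts in 4 comparisons, 1 per panel, as points with bars of 1 SE from the edgeR fit. Changes in Old against Young span -2.63 to 1.72, and those among aged groups lie between -1.04 and 1.02.

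Ordered by mean level, Old+YM, Old, Old+PM and Young followed each other for Akr1c12 and Akr1c13. Neighbours in that order overlapped in range for both genes, apart from Old+PM and Young for Akr1c13. For Akr1c14 and Akr1c18, Young was highest, and the 3 aged groups overlapped one another. Akr1c19 was highest in Old, followed by Old+PM, Old+YM and Young, and each neighbouring pair overlapped.

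Within groups, over deviations of the 16 libraries from their group means, the pairs of members were not alike. Akr1c14 and Akr1c18 had r = 0.54, Akr1c14 and Akr1c21 had r = 0.65, and Akr1c12 and Akr1c19 had r = -0.71. These are descriptions over libraries that also share depth and, within a group, whatever else set those libraries apart. Among 10299 other genes with a mean of at least 5 CPM, Acsm3, a medium-chain acyl-CoA synthetase, was the most like Akr1c14 (r = 0.93 within groups and 0.97 over all libraries), followed by Car3 (0.89) and Cxadr (0.87). For Akr1c18 the most alike were Slc41a1 (0.93), Slc16a9 (0.90) and Ace (0.90), which encodes angiotensin-converting enzyme. Most like Akr1c21 were Gopc (0.92), Uqcrb (0.91) and Gcnt1 (0.90). For Akr1c13 these were C330018D20Rik (0.86), Lrp4 (0.86) and Mettl4 (0.85). For Akr1c12 they were Trim12a (0.89), Gpr180 (0.88) and Lamtor3 (0.88), and for Akr1c19 they were Alg5 (0.89), Dpp8 (0.88) and Mcm3ap (0.88). As the highest of 10299 values for each member, these r are large by selection. Over all libraries r was 0.25 for Slc41a1, 0.49 for Gcnt1, 0.12 for C330018D20Rik and 0.37 for Lrp4. It was -0.03 for Alg5, 0.14 for Dpp8 and 0.36 for Mcm3ap. For the other genes named here it ran from 0.56 (Cxadr) to 0.97 (Acsm3).

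The remaining Akr1c genes were nearly silent. Akr1c6, a 17-beta-hydroxysteroid dehydrogenase of the liver, lay between 0 and 1.15 CPM and was removed by the filter. Akr1c20 lay between 0 and 1.58 CPM, with a log2 change of 0.60 (SE 0.91) in Old against Young. Akr1cl, a relative on chromosome 1, had no count outside Old+PM 3, where it had 12 counts, and a count of 0 allows up to 0.394 CPM in the smallest library. Akr1e1, which borders Akr1c21, had 79.1 ± 6.48 CPM (n = 5) in Young and 60.7 ± 7.47 CPM (n = 5) in Old (log2 -0.38, SE 0.12, edgeR adjusted p = 0.0376). That call was lost without any one of the Young libraries or of Old 1, Old 2, Old 3 and Old 5, where the adjusted p ran up to 0.128. It was also lost with upper quartile scaling (adjusted p = 0.0702) and with the clock score described below, where the log2 change was -0.09 (adjusted p = 0.830).

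Other genes near the row were tested as well. Of 30 annotated genes within 500 kb, Akr1e1 included, 13 were in the files and 6 were tested. Of these 0 rose (6.47% of all genes) and 3 fell (7.13% of all genes): Akr1e1, Gm9973 and Asb13. Gm9973, a transcribed pseudogene inside the row, went from 2.76 ± 1.19 to 0.691 ± 0.523 CPM (log2 -1.97, SE 0.56, edgeR adjusted p = 0.0252). Asb13, a substrate adaptor of ubiquitin ligases, changed by log2 -0.46 (SE 0.15, edgeR adjusted p = 0.0468). Without Young 2, Young 4, Old 1 or Old 5 in turn, none of the 3 passed, and 1 passed without Young 1, Young 3, Old 2 or Old 3. With upper quartile scaling Gm9973 alone passed, and with the clock score none of the 3 did (adjusted p = 0.0505 for Gm9973 and 0.992 for Asb13). In the treatment comparisons edgeR called 0 of the 6. At an unadjusted p under 0.05 there was 1 in Old+YM against Old (9.48% of all genes) and 1 in Old+PM against Old+YM (12.8% of all genes). DESeq2 called 1, Net1, a guanine nucleotide exchange factor, in Old+PM against Old+YM (log2 -1.77, adjusted p = 0.0287; edgeR adjusted p = 0.258), a gene named after its values were seen. DESeq2 called 59 of all genes there.

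Other enzymes of steroid conversion were mostly lower or little different in Old. Of 23 listed hydroxysteroid dehydrogenases and steroid reductases 16 were tested (median log2 -0.36). Of these 1 rose (6.47% of all genes) and 6 fell (7.13% of all genes). Srd5a2, the 5-alpha-reductase that makes dihydrotestosterone, the substrate of Akr1c14, fell from 18.2 ± 3.17 to 5.74 ± 2.07 CPM (log2 -1.67, SE 0.23, edgeR adjusted p = 0.000144). Hsd17b11, a dehydrogenase of lipid droplets, fell from 633 ± 60.5 to 222 ± 48.4 CPM (log2 -1.51, SE 0.14, edgeR adjusted p = 1.02e-06). Hsd11b1, which regenerates active glucocorticoid, fell from 90.9 ± 18.99 to 37.2 ± 8.53 CPM (log2 -1.29, SE 0.26, edgeR adjusted p = 0.00439). The gene that rose was Hsd3b7, an enzyme of bile acid synthesis, by log2 0.84 (SE 0.20, edgeR adjusted p = 0.00842). With a clock score as a covariate, described below, 0 of the 16 rose and 2 fell, and Hsd11b1 and Hsd3b7 no longer passed (adjusted p = 0.113 and adjusted p = 0.465).

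Of 10 other aldo-keto reductases, among them Akr1a1 and the Akr1b genes, all were tested. With edgeR 0 passed in Old against Young (13.6% of all genes), and the median log2 change was -0.15. At an unadjusted p under 0.05 there were 2 (28.1% of all genes), and DESeq2 called 0 of the 10, and 2424 genes over all. A single gene fell without Old 4. Of 11 tested steroid hormone receptors and partner proteins, 1 fell (7.13% of all genes) and none rose (6.47% of all genes). It was Fkbp4, a co-chaperone of steroid receptors (log2 -0.62, SE 0.17, edgeR adjusted p = 0.0202), and its call was lost without Young 1, Young 2 or Young 4 and with the clock score (edgeR adjusted p = 0.850). Of 11 tested targets of NRF2, the factor that switches on antioxidant enzymes, 1 rose (6.47% of all genes) and 2 fell (7.13% of all genes). Gsta2, a glutathione transferase, rose by log2 1.07 (SE 0.14, edgeR adjusted p = 8.01e-05). Gclm, a subunit of the enzyme that starts glutathione synthesis, fell by 0.86 on the log2 scale (SE 0.13, edgeR adjusted p = 0.000309, and 0.0728 with the clock score). Me1, the cytosolic malic enzyme, fell by 0.51 (SE 0.15, edgeR adjusted p = 0.0281), a call lost without Young 2, Young 3, Young 4, Young 5, Old 1, Old 4 or Old 5.

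Most androgen-responsive kidney genes were lower in Old. Of 8 listed genes 7 fell in Old (7.13% of all genes) and 0 rose (6.47% of all genes), with a median log2 change of -1.48. The list was chosen with earlier results of these data known, so that the count is no independent evidence of its direction. Slco1a1, an organic anion transporter, fell by 3.22 on the log2 scale (SE 0.41, edgeR adjusted p = 0.000428) and Acsm3 fell by 2.41 (SE 0.25, edgeR adjusted p = 4.05e-05). Cyp7b1, an oxysterol hydroxylase, and Odc1, which starts polyamine synthesis, fell by 1.89 (SE 0.27, edgeR adjusted p = 0.000594) and by 1.87 (SE 0.17, edgeR adjusted p = 2.32e-06). Their part in the levels of Akr1c14 and Akr1c18 was not tested. In none of the treatment comparisons did edgeR or DESeq2 call a gene of the lists of receptors, androgen-responsive genes, NRF2 targets, steroid enzymes or other aldo-keto reductases. Over all genes edgeR called 3 in Old+YM against Old, 0 in Old+PM against Old and 0 in Old+PM against Old+YM. The DESeq2 calls over all genes were 48, 0 and 59 in the same order. At an unadjusted p under 0.05 (edgeR) there were 4 of the 10 other aldo-keto reductases in Old+PM against Old (6.16% of all genes). In Old+PM against Old+YM there were again 4 (12.8% of all genes). Of the 16 steroid enzymes there were 3 in Old+YM against Old (9.48% of all genes). Every other count of these lists was 0 or 1.

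**Figure D4:**
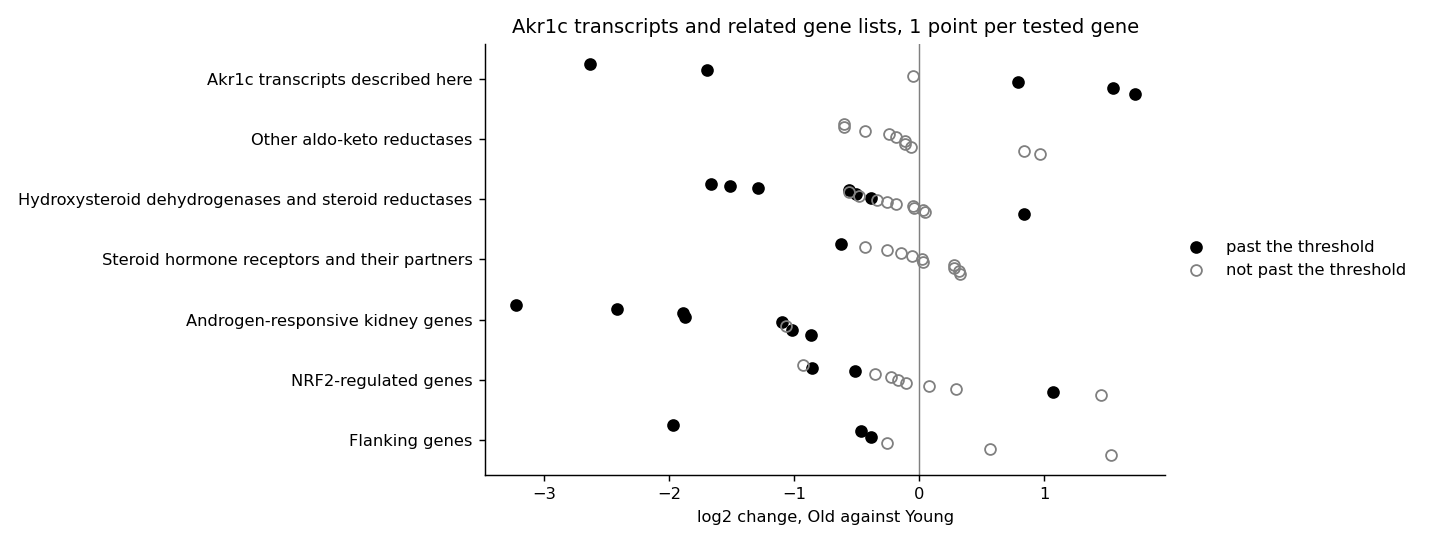
Log2 change in Old against Young (horizontal axis) of the 6 Akr1c transcripts and of each tested gene of 6 related lists (rows). Filled points passed the edgeR threshold of adjusted p 0.05 and open points did not. Of the androgen-responsive genes 7 are filled and below 0, and the Akr1c transcripts lie on both sides.

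Some other features of the libraries moved with age as well, but total counts and the mitochondrial share overlapped between Young and Old. Total counts ran from 8223008 to 10914515 per library. Mitochondrial transcripts made up 18.26% to 27.7% of them in Young and 18.43% to 21.99% in Old. The mitochondrial share was 17.76% to 24.54% in Old+YM. In Old+PM it was 14.98% to 18.03%, below every Young and every Old library. Of 10 proximal tubule markers 1 rose (6.47% of all genes) and 4 fell (7.13% of all genes) in Old. Their summed level ran from 12441 to 14592 CPM in Young and from 9044 to 12530 CPM in Old. Every marker was detected in each group. Immune markers summed to between 37.3 and 45.7 CPM in Young and between 58.5 and 330 CPM in Old, and injured tubule markers to between 431 and 489 CPM and between 529 and 800 CPM. Adipose markers summed to between 15.8 and 35.6 CPM in Young and between 4.19 and 12.5 CPM in Old, without overlap. Of these 5, all tested, 1 fell (7.13% of all genes): Car3, which is also named above as a gene most like Akr1c14. The part of these cell types in the Akr1c levels was not tested.

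A clock score, the mean log2 CPM of 10 genes of one phase of the circadian clock (among them Per1, Nr1d1 and Dbp) minus that of 5 genes of the opposite phase (among them Bmal1), ran from -0.73 to 1.11 in Young. In aged libraries it ran from 1.93 to 4.95 except in Old 4, at 0.62. Collection times were not given in the sources used here. In Old 4 the levels of Akr1c12, Akr1c13, Akr1c14, Akr1c18 and Akr1c19 were outside the range of Young. The part of the clock in the Akr1c levels was tested in no other way than by the fit that follows. With the score as a covariate, 4 of the 6 remained past the threshold in Old against Young. Over all tested genes 476 were past it in that fit, against 1995 without the score. Score and age were largely confounded, since Old 4 was the only Old library with a score within the range of Young. The fit therefore leans on few libraries and cannot separate the 2 well. The log2 changes were then 1.31 (SE 0.32) for Akr1c13, 1.17 (SE 0.25) for Akr1c19, -2.45 (SE 0.42) for Akr1c14 and -4.76 (SE 0.84) for Akr1c18. Akr1c12 did not pass, with log2 1.03 (SE 0.58).

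**Figure D5:**
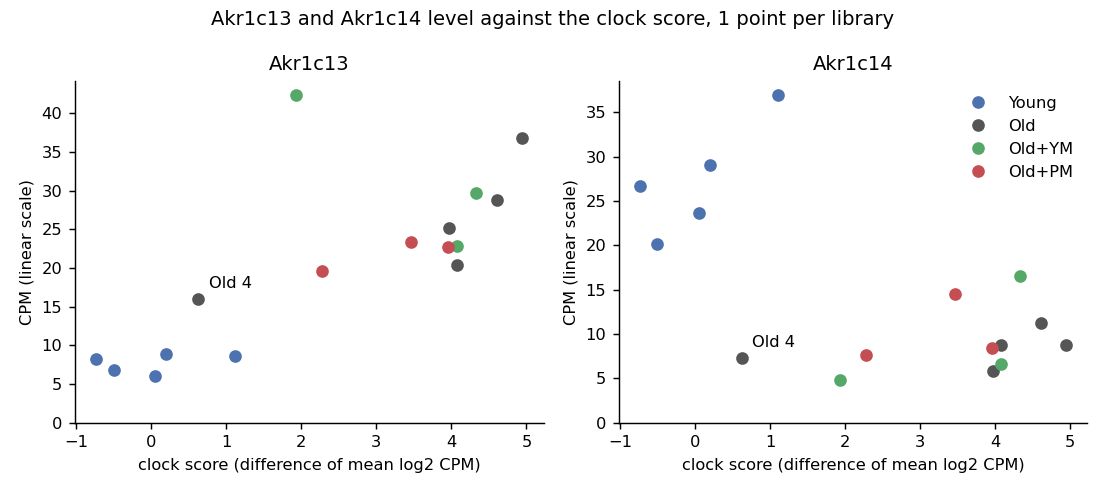
CPM of Akr1c13 and Akr1c14 (linear vertical axes from 0) against the clock score (horizontal axes), 1 point per library, with groups by colour. Old 4 has a clock score of 0.62, within the range of Young, and lies at 15.98 CPM of Akr1c13 and 7.31 CPM of Akr1c14.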

How the data were processed

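Kidney RNA of 16 libraries was counted by 3' sequencing. The authors deposited raw, whole-number counts for each gene symbol, made with Bowtie2 and bedtools on mm10, per the submitters' processing notes. Versions, annotation and strand setting were not given in the sources used here. Totals ran from 8223008 to 10914515 counts, and on TMM-scaled library sizes 1 CPM was 7.61 counts in the smallest library. With edgeR 4.0.16 (R 4.3.3), filterByExpr (minimum count 10) kept 14665 of 40879 genes, library sizes were scaled by TMM, and 1 robust quasi-likelihood fit of all 16 libraries with a term for group gave 4 two-sided comparisons. Benjamini-Hochberg adjustment covered all tested genes, at 0.05. SE is the absolute log2 change divided by the square root of F. Likeness used log2 CPM with a prior count of 2. The script was tested on simulated data. Alternatives were DESeq2 1.42.0, upper quartile scaling, no filter, fits of 2 groups, a replicate block, a clock score, no mitochondrial genes and each library left out. The file's Bmal1 was matched to Arntl by RefSeq synonym. Coding sequences, shared words and promoter windows were compared with Biopython 1.88, and identity was taken over coding bases in place of the planned protein alignment. The Akr1c genes and the gene lists were chosen with earlier results of these data known. Genes named are the 6, the other Akr1c genes, up to 4 per list with the largest change past the threshold in Old against Young (mean of at least 1 CPM), and the 3 most alike per member.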

Additional observations from a re-analysis of the deposited data

How the results depend on the processing

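Of the 6 Akr1c transcripts, 5 were past the threshold in Old against Young under every alternative run except the clock score, where 4 were, and leaving out any library gave 5. In the other comparisons 0 of the 6 were past it under every alternative. Counts over all genes moved more. Old against Young had 1995 genes, 476 with the clock score, and from 1208 (without Old 5) to 2655 when a library was left out, with 1236 without Young 4. Old+YM against Old had 3 genes, 48 with DESeq2, 6 without a filter, 20 in a fit of both groups only, 33 with the clock score and from 0 to 39 (without Young 5) with a library left out. Old+PM against Old+YM had 0 genes (1878 at an unadjusted p under 0.05), 59 with DESeq2, 8 without a filter, 13 in a fit of both groups only, 3 with the clock score and from 0 to 32 (without Young 5) with a library left out. Why these counts moved was not tested. Of 20 same-numbered pairs of libraries from different groups, 3 had a correlation of deviations over 0.1, and the 20 ran from -0.304 to 0.158. Differently numbered pairs were not compared, so these values cannot settle whether the replicate numbers pair libraries. With the replicate block, 5 of the 6 passed in Old against Young, and all-gene counts were 6 for Old+YM against Old and 1 for Old+PM against Old+YM. With words of 75 bases in place of 50, the share of words that Akr1c12 and Akr1c13 have in common was 1.4%. Depth limits Akr1c12 and Akr1c18 most, with 5 to 43 and 1 to 88 counts per library. The alternatives for related lists and genes were added after the data were seen.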
